A study of Mus musculus with 12 samples.

Results

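The genes described here are the 8 cyclins and kinases of the G1 phase that the mouse hair follicle stem cell (HFSC) tables list by symbol: the D-type cyclins Ccnd1, Ccnd2 and Ccnd3, the E-type cyclins Ccne1 and Ccne2, and the kinases Cdk4, Cdk6 and Cdk2. They are 8 of the 21942 genes in the tables together, and were matched by gene symbol in each table, without use of their values. RNA from sorted HFSCs was sequenced in 12 libraries, 3 for each of 4 groups, all from back skin of C57BL/6J mice. Control and Eed iKO mice were 70 days old, wild type mice in anagen, the growth phase of the hair cycle, were 28 to 30 days old, and wild type mice in telogen, the resting phase, were 50 to 52 days old. The control libraries are labelled wildtype and the methods give their treatment as the ethanol vehicle. Eed iKO mice (label Eed -/-) carried K15-CrePGR and Eed fl/fl, so that Cre driven by the Keratin 15 promoter deletes Eed, which encodes a core subunit of the histone methyltransferase complex PRC2, in the bulge after topical RU-486. RU-486 was given in ethanol at 10 mg/ml, 100 µl per day for 7 days, starting at day 50 for these mice. The sort kept cells with EpCAM, high α6-integrin and CD34 on their surface and without Sca1. The hair cycle groups differ in age as well as in stage, and age and stage cannot be told apart.

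Cells that leave quiescence pass through G1, in which D-type cyclins bind and activate CDK4 and CDK6. These kinases phosphorylate the retinoblastoma family of pocket proteins and so release E2F factors, whose targets include the genes of the E-type cyclins. E-type cyclins then activate CDK2, which carries the cell into DNA replication, while inhibitors of the INK4 and CIP families restrain these kinases. HFSCs of the bulge are quiescent for most of the hair cycle and divide for a short time in early anagen.

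The authors deposited each gene as a count normalized with DESeq2, and this unit is called the normalized count below. The control and Eed iKO libraries form one table and the anagen and telogen libraries another, and no value was compared between the tables. Reads recovered from the Eed iKO table came to between 33269583 and 57063586 in a library, whereas read depth is unknown for the hair cycle table, in which normalized counts sum to between 11370984 and 13186648. All 10 HFSC markers examined, Cd34 and Krt15 among them, had normalized counts in every group. At an adjusted p under 0.05 from limma 1 of them, Itga6, was called higher in anagen, and 1, Cd34, was called lower, with 2955.5 to 4144 normalized counts in anagen and 6433 to 9159 in telogen. Both encode markers used in the sort. The summed level of the 10 was lowest in telogen replicate 1, at 236500, against 531510 and 626710 in the other telogen libraries and 551500 to 663760 in anagen. Summed melanocyte markers were 434.96 to 770.2 in anagen and 72.7 to 151 in telogen, with 1 of the 4 markers called higher, and summed Langerhans and myeloid markers were 81.7 to 146 in anagen and 151 to 407 in telogen, with 0 of 5 called. Among 5 interfollicular markers 1 was called higher in anagen (Flg, 357 to 597 against 47.1 to 84.2), among 4 fibroblast markers 1 was higher (Col1a1, 214 to 419 against 45.5 to 89.9), and among 5 matrix and hair germ markers 1 was lower (Msx2, 104 to 151 against 315 to 469). Krt20 and Atoh1, which define Merkel cells, were at 0 in all hair cycle libraries. The part of these differences in the results was not tested. In sorted bulk RNA, fewer cells of a type and less RNA per cell cannot be told apart.

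Anagen and telogen libraries were compared to ask how the G1 genes differ between growing and resting follicles. Of the 8 genes, 5 were higher in anagen at an adjusted p under 0.05 and 0 were lower, where 7.22% of the 13457 genes tested were called higher and 4.35% lower. The 5 genes were Ccnd1, Ccnd2, Ccne1, Ccne2 and Cdk4, and Ccnd3, Cdk2 and Cdk6 did not pass. The median log2 fold change of the 8 genes was 1.54, against 0.013 for all genes tested. For 6 of the 8 genes each anagen library lay above each telogen library, as it did for 18.1% of all genes tested, while groups were apart in either direction for 33.3%. At the fold threshold of the methods for this table (log2 fold change past 2 and unadjusted p under 0.05) 2 of the 8 genes passed, Ccne1 and Ccne2, where 5.1% of all genes did. Log2 fold changes are on the scale of log2(normalized count + 1), which understates changes of low genes, and the p-values are from limma with Benjamini-Hochberg adjustment over all genes tested. They measure the spread between these libraries, and the labels do not say that each library came from separate animals, although the paper describes those of the Eed iKO comparison as biological replicates and the hair cycle cells as taken from several animals.

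Among the D-type cyclins, which link growth signals to the cell cycle, Ccnd1 and Ccnd2 rose in anagen while Ccnd3 did not pass the test. Ccnd1 (ENSMUSG00000070348.5, minus strand of chromosome 7, 144929931 to 144939925, GRCm38) had 1020.0, 1862 and 1026 normalized counts in telogen replicates 1, 2 and 3, and 4497, 3557 and 3260.3 in anagen replicates 1, 2 and 3. Each anagen library lay above each telogen library, and telogen replicate 2 was the highest of its group. The means were 1302.5 ± 485 (SD, n = 3) for telogen and 3771.5 ± 646 (SD, n = 3) for anagen, a 2.99-fold difference on the scale tested (log2 fold change 1.58, standard error, SE, 0.26 and adjusted p = 0.00312 by limma).

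Ccnd2 (ENSMUSG00000000184.12, minus strand of chromosome 6, 127125162 to 127152193) was the D-type cyclin with the highest normalized count per kb of transcript in both hair cycle groups, as described further on. It had 1436, 2266 and 2075 normalized counts in the telogen libraries and 6243, 4662 and 5286 in anagen. The groups did not overlap. The means were 1926 ± 435 (SD, n = 3) and 5397 ± 796 (SD, n = 3), a 2.83-fold difference (log2 fold change 1.503, SE 0.22 and adjusted p = 0.00158 by limma).

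Ccnd3 (ENSMUSG00000034165.16, plus strand of chromosome 17, 47505051 to 47599691) stood apart from the other D-type cyclins in that its groups overlapped. It had 237, 382 and 331 normalized counts in the telogen libraries and 299.9, 265 and 369.7 in anagen. The log2 fold change was -0.01 (SE 0.29 and adjusted p = 0.985 by limma), and its 95% confidence interval of -0.65 to 0.63 does not reach the changes of Ccnd1 or Ccnd2. The direction of this small difference turned when single libraries were left out.

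**Figure D1:**
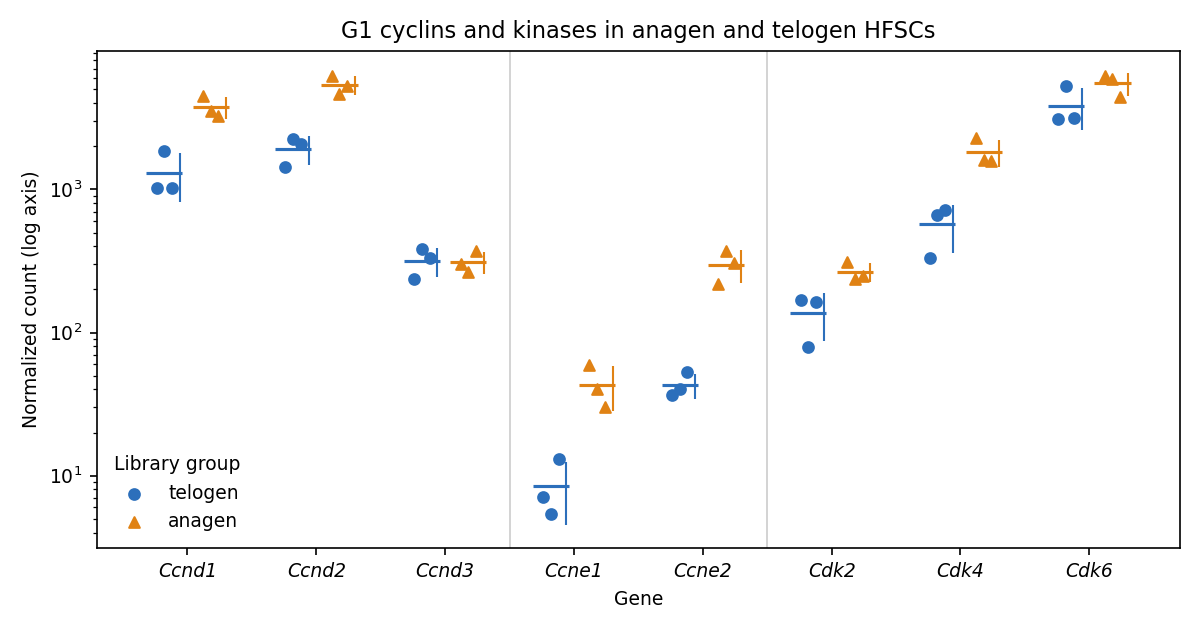
Normalized counts (log axis) of the 8 genes in each telogen and anagen library, with points for libraries and lines for the means of 3. The anagen libraries lie above all telogen libraries for 6 genes, while the groups overlap for Ccnd3 and Cdk6.

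Both E-type cyclins rose, from low levels. Ccne2 (ENSMUSG00000028212.16, plus strand of chromosome 4, 11191351 to 11204779) had the largest log2 fold change of the 8 genes. Its normalized counts were 36.3, 40.3 and 52.7 in the telogen libraries and 217, 373 and 306 in anagen. All anagen libraries were far above all telogen libraries. The means were 43.1 ± 8.56 (SD, n = 3) and 299 ± 78.2 (SD, n = 3), with a log2 fold change of 2.75 (SE 0.38 and adjusted p = 0.00128 by limma).

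Ccne1 (ENSMUSG00000002068.16, minus strand of chromosome 7, 38097984 to 38107534) is the other E-type cyclin and was the lowest of the 8 genes in both hair cycle groups. It had 7.11, 5.38 and 13.0 normalized counts in the telogen libraries and 59.4, 40.3 and 30.2 in anagen, so that the groups did not overlap. The log2 fold change was 2.25 (SE 0.63 and adjusted p = 0.0423 by limma, 95% confidence interval 0.86 to 3.64). This call is the weakest of the 5. It was lost in 8 of 11 alternatives, including those without telogen replicate 1 or 2 or any 1 of the anagen replicates, with adjusted p between 0.0278 and 0.208 over all alternatives from limma.

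Of the kinases, Cdk4 rose, whereas Cdk6 and Cdk2 did not pass the test. Cdk4 (ENSMUSG00000006728.12, plus strand of chromosome 10, 127063534 to 127067920) encodes a partner of the D-type cyclins. It had 330.0, 667 and 721 normalized counts in the telogen libraries and 2275, 1595 and 1592 in anagen. The groups did not overlap, and telogen replicate 1, the library with the lowest summed HFSC markers, was the lowest of the 6. The means were 573 ± 212 (SD, n = 3) and 1821 ± 393 (SD, n = 3), a 3.31-fold difference (log2 fold change 1.73, SE 0.30 and adjusted p = 0.00489 by limma). Without telogen replicate 1 the call held.

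Cdk6 (ENSMUSG00000040274.11, plus strand of chromosome 5, 3341485 to 3531008), which encodes the other partner of the D-type cyclins, had 3106, 5271 and 3151 normalized counts in the telogen libraries and 6243, 5871 and 4398 in anagen. The groups overlapped because telogen replicate 2 lay above anagen replicate 3. The log2 fold change was 0.55 (SE 0.24 and adjusted p = 0.166 by limma, 95% confidence interval 0.02 to 1.07). Without telogen replicate 2 it was 0.80 with an adjusted p of 0.0382 from limma, the only 1 of 11 alternatives in which Cdk6 passed. Over all alternatives the adjusted p from limma reached 0.426.

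Cdk2 (ENSMUSG00000025358.16, minus strand of chromosome 10, 128697939 to 128705031), the gene for the partner of the E-type cyclins, had 169.8, 78.8 and 165 normalized counts in the telogen libraries and 309, 235 and 249.9 in anagen. The groups did not overlap, and telogen replicate 2 was the lowest library. The log2 fold change was 1.01 (SE 0.37 and adjusted p = 0.105 by limma, 95% confidence interval 0.19 to 1.82), so that the adjusted p missed the threshold while the unadjusted p was 0.0197. Unadjusted p-values under 0.05 were found for 7 of the 8 genes, all but Ccnd3, and all were higher, where 15.1% of all genes tested had one and were higher, and 27.3% had one in either direction.

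**Figure D2:**
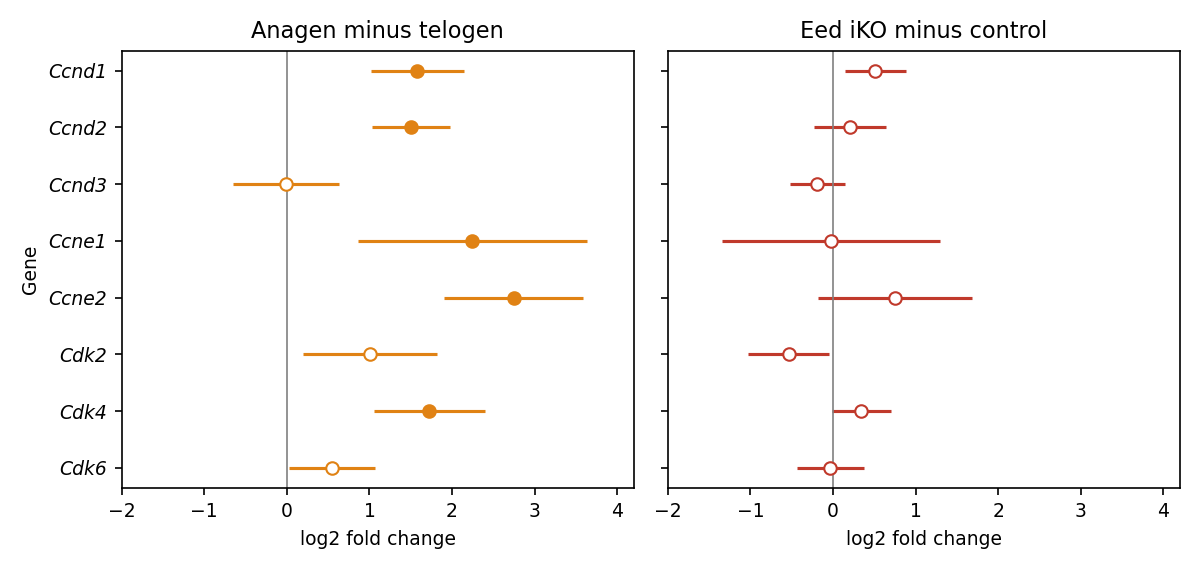
Log2 fold changes of the 8 genes with their 95% confidence intervals (bars) from limma, for anagen minus telogen and for Eed iKO minus control. The 5 filled points, all in the hair cycle comparison, have an adjusted p under 0.05, and 0 of 8 pass in the Eed iKO comparison.

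The promoter sequences below are shown for a kinase gene that rose, one that missed the adjusted threshold and a D-type cyclin gene with overlapping groups, since they let the letters upstream of members that did and did not pass be read side by side. Each is the 250 bases before a transcript start in RefSeq (GRCm38.p6), 5′ to 3′ on the strand of the gene. Entries were matched for 5 of the 8 genes, Ccnd3, Ccne1, Cdk2, Cdk4 and Cdk6, and there was none for Ccnd1, Ccnd2 and Ccne2. Capitals mark matches on either strand to an E-box (CACGTG), an E2F motif (TTTCCCGC, TTTCGCGC, TTTGCCGC or TTTGGCGC), an AP-1 motif (TGACTCA), a CRE (TGACGTCA), a CCAAT box (CCAAT) and a GC box (GGGCGG), none of which overlap each other here. The windows are chr10:127063285-127063534 (plus strand) for Cdk4, chr10:128705052-128705301 (minus strand) for Cdk2 and chr17:47504801-47505050 (plus strand) for the first of the 2 promoters of Ccnd3.
Cdk4: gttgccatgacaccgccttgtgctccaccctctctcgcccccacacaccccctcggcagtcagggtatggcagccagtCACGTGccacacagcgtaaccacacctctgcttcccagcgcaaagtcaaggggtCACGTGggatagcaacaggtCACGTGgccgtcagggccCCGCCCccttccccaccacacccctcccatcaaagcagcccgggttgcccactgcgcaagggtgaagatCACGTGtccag
Cdk2: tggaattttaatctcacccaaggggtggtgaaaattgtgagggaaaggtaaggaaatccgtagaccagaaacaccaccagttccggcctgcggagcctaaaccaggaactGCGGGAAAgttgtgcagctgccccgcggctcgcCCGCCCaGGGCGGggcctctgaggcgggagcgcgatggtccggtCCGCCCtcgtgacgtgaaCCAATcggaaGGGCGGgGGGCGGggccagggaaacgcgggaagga
Ccnd3: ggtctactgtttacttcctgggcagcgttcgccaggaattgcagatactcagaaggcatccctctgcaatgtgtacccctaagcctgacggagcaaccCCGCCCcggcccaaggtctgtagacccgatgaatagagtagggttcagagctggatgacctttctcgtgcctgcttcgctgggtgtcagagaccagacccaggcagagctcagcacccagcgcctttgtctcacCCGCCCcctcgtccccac

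The Cdk4 window holds 4 E-boxes, the sequence bound by MYC and related factors, beginning 172, 118, 98 and 11 bases before the start, and 1 GC box. An E-box was found in 6.02% of 32851 promoter windows of the same length, and 4 or more in 7 of them. The Cdk2 window holds 1 E2F motif beginning 140 bases before the start, a motif found in 1.86% of the windows, with 1 CCAAT box and 5 GC boxes. The Ccnd3 window shown holds 2 GC boxes and 0 of the other motifs, whereas that of its second promoter, not shown, holds 1 CCAAT box and 1 GC box. A CCAAT box was found in 33.8% of the windows and a GC box in 32.7%. Among the matched genes whose sequences are not shown, Ccne1 holds 4 GC boxes and Cdk6 holds 1 E-box beginning 220 bases before the start. A match of letters is a description and does not show binding in these cells.

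To compare levels between genes, normalized counts were divided by the mean length of the protein-coding transcripts of each gene. In telogen the order per kb was Cdk6 (1240.1), Ccnd2 (861), Cdk4 (468), Ccnd1 (348), Ccnd3 (304), Cdk2 (59.3), Ccne2 (14.5) and Ccne1 (6.52). Cdk6 and Ccnd2 overlapped between libraries, as did Cdk4, Ccnd1 and Ccnd3 with their neighbours. In anagen the order was Ccnd2 (2413), Cdk6 (1776), Cdk4 (1487), Ccnd1 (1008), Ccnd3 (299), Cdk2 (114), Ccne2 (100.4) and Ccne1 (33.2), and the neighbours that overlapped were Cdk6 with Cdk4 and Cdk2 with Ccne2. By mean level, E-type cyclins were below Cdk2, and Cdk2 below the D-type cyclins and the other kinases, in all 4 groups and with each of the 3 transcript lengths tried. The order within the D-type cyclins and between Cdk4 and Cdk6 depended on the length chosen.

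With the mean transcript length, shares of Ccnd2, Ccnd3, Cdk4 and Cdk6 within their classes lay apart between the stages. Those of Ccnd1, Cdk2 and the E-type cyclins overlapped. The separation of Ccnd2 depended on the length chosen. With the coding length its share was 55.1% ± 5.2% in telogen and 57.4% ± 2.2% in anagen (SD over 3 libraries each). With the longest transcript it was 38.3% ± 4.5% and 42.4% ± 1.9%, and with both lengths the stages overlapped. No ratio passed an adjusted p of 0.05 in the exact permutation test, and none could, since 3 libraries against 3 give a p of at least 0.1. Ccnd3 made up 19.9%, 19.5% and 20.9% of the summed per-kb level of the D-type cyclins in the telogen libraries, and 6.72%, 7.73% and 9.88% in the anagen libraries. The groups did not overlap. Within a library the log2 ratio of Ccnd1 to Ccnd3 was 2.00 ± 0.34 in telogen and 3.59 ± 0.40 in anagen (SD over 3 libraries each), and that of Ccnd2 to Ccnd3 was 2.60 ± 0.04 and 4.11 ± 0.27. A difference of these ratios between groups does not depend on transcript length. By contrast, the ratio of Ccnd1 to Ccnd2 was -0.60 ± 0.38 in telogen and -0.52 ± 0.16 in anagen, and its groups overlapped.

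Among the kinases, Cdk4 made up 20.0%, 23.9% and 35.1% of the summed per-kb level in telogen and 46.4%, 39.5% and 45.99% in anagen, while Cdk6 made up 74.5%, 74.6% and 60.7% in telogen and 50.3%, 57.4% and 50.2% in anagen. Groups did not overlap for either kinase. The log2 ratio of Cdk4 to Cdk6 was -2.78 ± 0.58 in telogen and -1.60 ± 0.24 in anagen (SD over 3 libraries each). The difference of 1.18, like those of the ratios to Ccnd3, had a p of 0.1 in a two-sided exact permutation test, the smallest that 3 libraries against 3 can give, and 0.233 after adjustment over the 7 ratios compared. Ccne2 made up 63.99% to 76.7% of the E-type cyclins in telogen and 61.6% to 81.7% in anagen, and the groups overlapped.

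**Figure D3:**
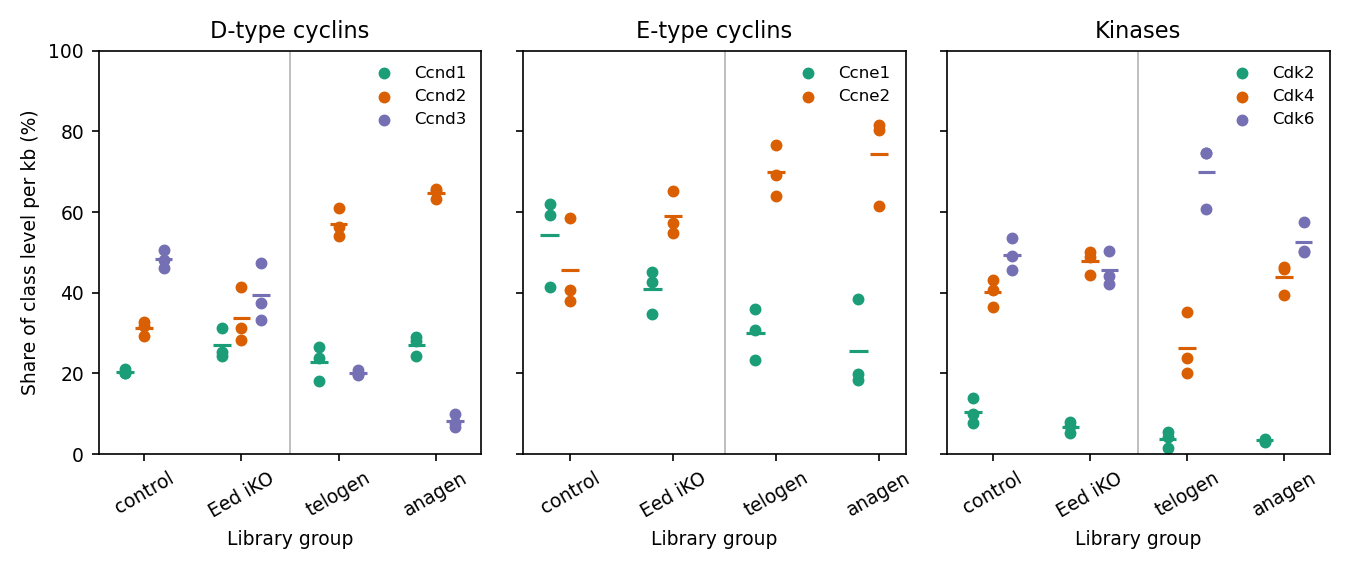
Share in percent of the summed per-kb level of D-type cyclins, E-type cyclins and kinases that each gene makes up in each library, for all 4 groups of 3 libraries, with each table on its own. Ccnd3 falls between 19.5% and 20.9% in telogen and between 6.72% and 9.88% in anagen.

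Genes around the 8 in the pathway were counted from 7 lists of 60 genes, 58 of which were tested in the hair cycle table. Of these 58, 14 rose in anagen and 0 fell at an adjusted p under 0.05 from limma, where 7.22% of all genes tested rose, and their median log2 fold change was 0.37. Of the 13 pocket protein and E2F genes tested, 5 rose, namely E2f8 (log2 fold change 5.04), E2f1 (3.13), E2f2 (2.43), E2f3 (2.34) and Tfdp1 (1.57), the last of which encodes the DNA-binding partner of the E2F factors. Of the 5 S and M phase genes tested, 4 rose, with log2 fold changes of 5.33 for Cdk1, 4.98 for Ccnb1, 4.91 for Ccnb2 and 4.38 for Ccna2, which encode the mitotic kinase and its cyclins. Mki67, a marker of cycling cells, had 421, 431 and 276 normalized counts in the telogen libraries and 14954, 12975 and 10404 in anagen. The changes of all 8 G1 genes were smaller than those of these S and M phase genes.

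The other lists held 1 gene each that rose. Cdkn2c, the gene for an INK4 inhibitor of CDK4 and CDK6, rose by 4.01 on the log2 scale (adjusted p = 0.0103 from limma), and was 1 of 6 inhibitors tested. Cdc25c, which encodes a phosphatase that activates CDK1, rose by 3.44 among 6 activating genes, and Cks1b, which encodes a subunit that binds cyclin-dependent kinases and serves in the turnover of CDK inhibitors, rose by 1.12 among 8 turnover genes. Of 11 transcriptional cyclins and kinases, which act on RNA polymerase, Ccnl1 rose by 0.71, and of 9 other cyclins tested, Ccng2 rose by 1.95. When single libraries were left out, 10 to 16 genes were called higher and 0 to 2 lower. The lower calls, named after their values were seen, were Cdkn1c without telogen replicate 1 or anagen replicate 2, and Cdc25b and Ccnt2 without telogen replicate 2. The calls of Cdkn2c and E2f2 were lost without anagen replicate 1, that of Cks1b without telogen replicate 3 or any 1 of the anagen replicates, and that of Ccnl1 without any 1 library other than telogen replicate 1.

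**Figure D4:**
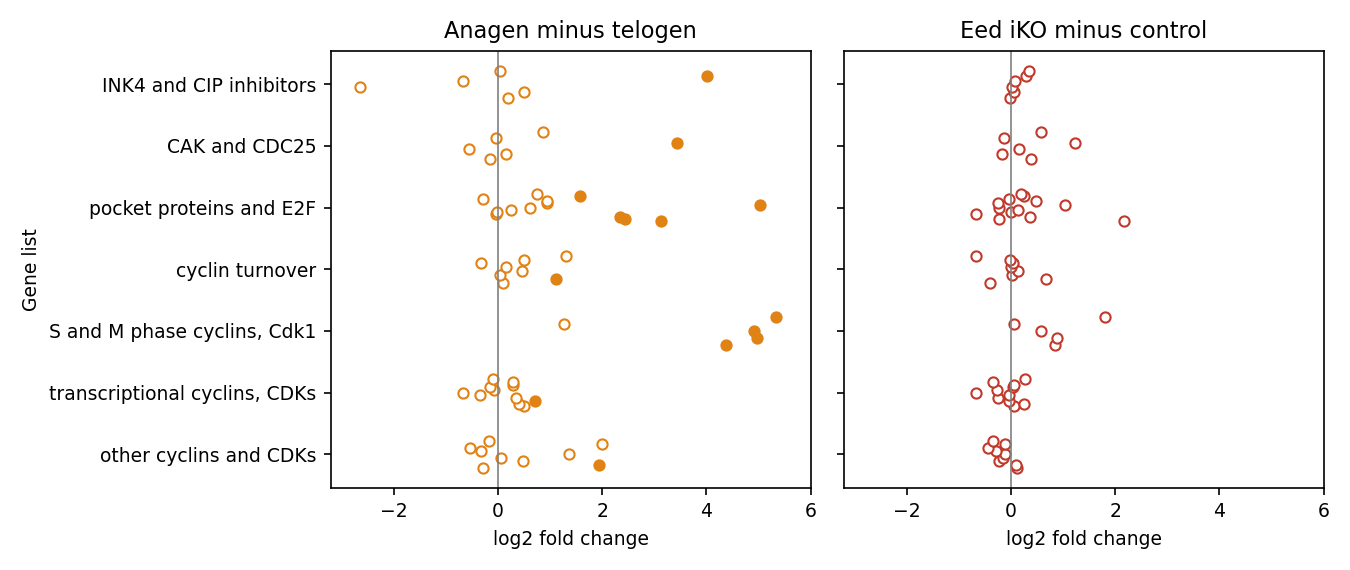
Log2 fold changes of the genes tested in each pathway list, in the hair cycle and Eed iKO comparisons, with 1 point per gene and filled points at an adjusted p under 0.05 from limma. Filled points lie above 0 in the hair cycle comparison, and the Eed iKO comparison has 0 filled points.

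The libraries labelled Eed iKO were compared with control libraries to ask how the G1 genes differ between these groups in resting HFSCs. By the labels and methods, genotype and RU-486 treatment differ together between the groups and cannot be told apart. Eed itself had 1084, 1249 and 950.2 normalized counts in the control and 933, 1361 and 1001 in the libraries labelled Eed iKO, so that Eed mRNA was not lower in the latter, and directions below rest on the labels. Of the 8 G1 genes, 0 passed an adjusted p of 0.05 from limma, where 0.0267% of the 15008 genes tested were called, 0.02% higher and 0.00666% lower. Neither edgeR, DESeq2 nor voom on recovered reads called any of the 8, and DESeq2 gave no adjusted p for Ccne1. At an unadjusted p under 0.05 there were 2 genes, Ccnd1 (higher, as for 8.38% of all genes tested) and Cdk2 (lower, as for 6.33%), where 14.7% of all genes passed. The groups were apart for 3 of the 8 genes, 2 higher (Ccnd1 and Ccne2) and 1 lower (Cdk2), where the shares of all genes were 10.2% higher, 10% lower and 20.2% in all. At the fold threshold of the methods for this table (log2 fold change past 1.5 and unadjusted p under 0.05) 0 of the 8 passed, where 1.75% of all genes did. The median log2 fold change of the 8 genes was 0.09, against -0.001 for all genes tested.

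Among the D-type cyclins, Ccnd1 had 4097, 4084 and 4044 normalized counts in control replicates 1, 2 and 3 and 5874, 7157 and 4649.5 in the libraries labelled Eed iKO. All 3 of the latter lay above the control libraries, which spanned a narrow range, and replicate 3 was the closest to them. The means were 4075 ± 27.8 (SD, n = 3) and 5893 ± 1254 (SD, n = 3), with a log2 fold change of 0.51 (SE 0.17, 95% confidence interval 0.14 to 0.88, adjusted p = 0.196 from limma). The adjusted p ranged from 0.0705 to 0.53 over the alternatives.

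Ccnd2 and Ccnd3 overlapped between the groups. Ccnd2 had 3828, 3556 and 3845 normalized counts in control and 5758, 4293 and 3235 in the libraries labelled Eed iKO, with a log2 fold change of 0.20 (95% confidence interval -0.23 to 0.64, adjusted p = 0.676 from limma). The libraries labelled Eed iKO spread more widely than the control libraries for both Ccnd1 and Ccnd2. Ccnd3 had 2510.1, 2861 and 2708 normalized counts in control and 2143, 2402 and 2535 in the libraries labelled Eed iKO, with a log2 fold change of -0.19 (95% confidence interval -0.52 to 0.14, adjusted p = 0.589 from limma).

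**Figure D5:**
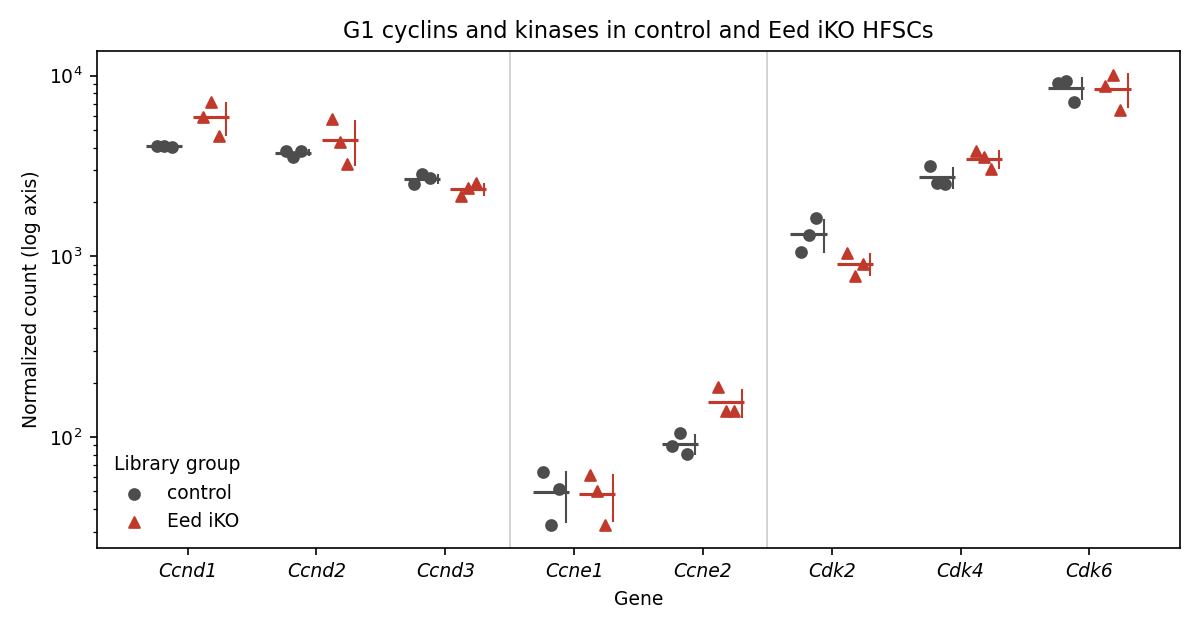
Normalized counts (log axis) of the 8 genes in each control library and each library labelled Eed iKO, with points for libraries and lines for the means of 3. The groups separate for Ccnd1 and Ccne2 (higher in Eed iKO) and for Cdk2 (lower), and overlap for the other 5 genes.

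The E-type cyclins were low in this table as well. Ccne2 had 88.8, 105 and 80.7 normalized counts in control and 188, 139 and 139 in the libraries labelled Eed iKO. The groups did not overlap, but the log2 fold change of 0.75 carried a wide 95% confidence interval of -0.18 to 1.69 (adjusted p = 0.431 from limma). Ccne1 had 63.8, 32.5 and 51.7 normalized counts in control and 61.3, 50.5 and 32.6 in the libraries labelled Eed iKO, and the log2 fold change was -0.03 (95% confidence interval -1.35 to 1.29, adjusted p = 0.988 from limma). This interval leaves room for a more than 2-fold difference in either direction.

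Of the kinases, Cdk2 had 1053, 1319 and 1622 normalized counts in control and 1048, 779.5 and 902 in the libraries labelled Eed iKO. The groups did not overlap, though by a small margin of 1053 against 1048. The log2 fold change was -0.54 (SE 0.22, 95% confidence interval -1.03 to -0.05, adjusted p = 0.294 from limma). Cdk4 had 3162, 2535 and 2502 normalized counts in control and 3847, 3523 and 3025 in the libraries labelled Eed iKO, with a log2 fold change of 0.34 (adjusted p = 0.359 from limma), and Cdk6 had 9116, 9389 and 7106 against 8813, 10078 and 6434, with a log2 fold change of -0.03 (adjusted p = 0.96 from limma). Both overlapped between the groups.

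Within libraries, the log2 ratio of Ccnd1 to Ccnd3 was 0.60 ± 0.10 for control and 1.30 ± 0.37 (SD over 3 libraries each) for the libraries labelled Eed iKO, and that of Cdk4 to Cdk2 was 1.05 ± 0.49 and 1.93 ± 0.22. Neither ratio overlapped between the groups. Both had a p of 0.1 in the two-sided exact permutation test, the smallest it can give here, or 0.35 after adjustment over 7 ratios. The other 5 ratios overlapped. Per kb of transcript, Cdk6 (2755), Ccnd3 (2583) and Cdk4 (2231) led in control, followed by Ccnd2 (1674), Ccnd1 (1089.6), Cdk2 (573), Ccne1 (37.8) and Ccne2 (30.8). In the libraries labelled Eed iKO the 5 leading genes, Cdk4 (2829), Cdk6 (2724), Ccnd3 (2264), Ccnd2 (1980.2) and Ccnd1 (1576), each overlapped the next, and Cdk2 (391.7), Ccne2 (52.4) and Ccne1 (36.9) followed.

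None of the 58 pathway genes tested in the Eed iKO table passed an adjusted p of 0.05 from limma without the replicate block, edgeR or voom. DESeq2 on recovered reads called 3, E2f1 and Cdk1 higher and Ccnt2 lower, where it called 4.48% of all 14984 genes it tested. In the limma fit the log2 fold changes were 2.17 for E2f1, 1.80 for Cdk1 and -0.665 for Ccnt2. These 3 are named after their values were seen. At an unadjusted p under 0.05 from limma there were 9, 4 higher and 5 lower, where 14.7% of all genes tested passed. Mki67 had 639, 2543 and 928 normalized counts in control and 6125, 6301 and 609 in the libraries labelled Eed iKO, so that replicate 3 of the latter was the lowest of all 6 libraries. That replicate also had the highest summed interfollicular markers, at 57647 against 8679.8 to 39970.0 in control and 4515 and 13446 in the other libraries of its group. Its levels of Ccnd1, Ccnd2, Ccne1, Cdk4 and Cdk6 were the lowest of its group. So was that of Ccne2, by a small margin of 139.397 against 139.44, whereas those of Ccnd3 and Cdk2 were not. The part of these differences in the results was not tested.

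Antisense neighbours limit what the values of some genes can show, since reads of overlapping exons are not told apart without strand, and the strand setting of the counting is not given in the sources used here. Exons of LTO1 on the opposite strand cover 23.4% of the exon bases of Ccnd1, those of Tspan31 cover 19.7% of Cdk4, and those of Ints8 cover 17.4% of Ccne2. In the hair cycle table the log2 fold changes of these neighbours were -0.53 for LTO1 (adjusted p = 0.497), 0.71 for Tspan31 (adjusted p = 0.0952) and -0.34 for Ints8 (adjusted p = 0.401), all from limma. In the Eed iKO table they were 0.57 for LTO1 (adjusted p = 0.34), 0.48 for Tspan31 (adjusted p = 0.385) and -0.58 for Ints8 (adjusted p = 0.153), so that LTO1 and Tspan31 had the same sign as Ccnd1 and Cdk4 there and Ints8 had the sign opposite to Ccne2. Their part in the values of the members was not tested. For the other members the antisense overlap was 7.9% or less, and no member had a same-strand overlap.

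The genes with levels most alike to Ccne2, the member with the largest fold change, were named by the correlation of log2(normalized count + 1) over the 6 libraries of a table, as a description in which both groups contribute. In the hair cycle table they were Prkaa2 (Pearson r = 0.996), Ptpn9 (0.993) and Chl1 (0.993) of 13456 genes, and in the Eed iKO table Dapk3 (0.994), Kdelc2 (0.992) and Fastkd3 (0.991) of 15007 genes.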

How the data were processed

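RNA-seq of sorted HFSCs was analysed from the 2 deposited tables. According to the labels and methods, the authors amplified 10 ng of total RNA, aligned reads to Gencode vM20 transcripts with Kallisto (0.42.5) and used DESeq2 (labelled 3.11) on protein-coding genes. The deposited signal is a count per gene normalized with DESeq2. The authors' fold changes and p-values were not used. Genes were tested with limma (3.58.1, R 4.3.3) on log2(normalized count + 1) with an intensity trend, after filterByExpr of edgeR (4.0.16) at a count minimum of 10, in each table separately with 3 libraries per group from the labels. All 8 members passed the filter in both tables. Scripts were tested on simulated data. Ratios used exact permutation tests in SciPy (1.17.1), run in Python 3.11.15.

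In the Eed iKO table, 100% of values were whole multiples of 1 constant within 0.05, so reads were recovered for edgeR, DESeq2 (1.42.0) and voom, the last added after the data were seen. Coordinates and lengths are from GENCODE vM21 (GRCm38). Of the table identifiers, 17241 of 17885 and 21173 of 21915 matched it. Members, lists and tests were chosen with earlier results of these data known. Named were all 8 members, Eed, Mki67, list genes past an adjusted p of 0.05 (at most 6 per list) and the 3 genes most alike to the member with the largest change. Alternatives were a pseudocount of 0.1, no filter, TMM scaling, no trend, the replicate block, each library left out, the fold thresholds of the methods, the read-based tests and other lengths.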

Additional observations from a re-analysis of the deposited data

How the results depend on the processing

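The number of genes called in the Eed iKO comparison was 4, and it depended strongly on the test. It was 2 without an intensity trend, 672 with DESeq2 on recovered reads and 263 at the fold thresholds of the methods, and between 1 and 188 when single libraries were left out, with 188 without Eed iKO replicate 3. In the hair cycle comparison 1556 genes were called, 842 without the trend, 686 at the fold thresholds, and between 590 and 1534 without single libraries, with 590, 675 and 826 without anagen replicates 1, 2 and 3. At these fold thresholds 2 of the 8 members, Ccne1 and Ccne2, were called in the hair cycle, where 5.1% of all genes passed. Ccnd1, Ccnd2, Ccne2 and Cdk4 kept their calls and directions in all 11 other fits. Members called in the Eed iKO comparison stayed at 0 in all settings.

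Log2 fold changes that turned sign when single libraries were left out were those of Ccne1 (-0.30 to 0.22), Cdk6 (-0.17 to 0.15) and Ccnd2 (-0.005 to 0.41) in the Eed iKO comparison and of Ccnd3 (-0.21 to 0.14) in the hair cycle. In the comparison in which its sign turned, each of these members passed the threshold in 0 fits. With the longest transcript, the leading member of a class per kb was the same in 6 of 12 classes and groups, and with the coding length in 8. The cause was not tested. Each fit without 1 library leaves a group of 2. A count test of the hair cycle table was not run, because whole reads could not be recovered from it.

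Under the replicate block, 424 genes passed in the Eed iKO comparison, among them 0 members and 2 of the 58 pathway genes (E2f1 higher and Ccnt2 lower), and 1224 in the hair cycle, with 4 members, since the adjusted p of Ccne1 rose to 0.0766, and with 13 pathway genes higher and 1 lower. Deviations of same-numbered libraries correlated at 0.039, 0.068 and 0.193 in the Eed iKO table and at -0.035, -0.071 and -0.029 in the hair cycle table, and not every library correlated best with its own number, so the numbers were not taken to pair the libraries.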
